A study of Mus musculus with 12 samples.

Results

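The 10 glutathione S-transferase genes described here are Gsta2, Gsta3 and Gsta4 of the alpha class, Gstm1, Gstm2, Gstm3, Gstm4 and Gstm6 of the mu class, Gstp1 of the pi class and Gstt2 of the theta class. They were found through the platform annotation: a probe set, the group of short oligonucleotides that reports 1 transcript, was taken when it carried exactly 1 gene symbol and that symbol was one of the 10. This gave 15 probe sets for 10 of the 12393 genes measured. Gstm1 was read by 4 of them, Gsta3 and Gstm3 by 2 each, and the other members by 1 each. The probe sets that stand for Gsta2, Gstm1, Gstm3, Gstm6 and Gstp1 carry a suffix that marks probes shared between transcripts. For Gsta2, Gstm6 and Gstp1 the suffix (a) refers to transcripts of the same gene. For Gstm1 (x) and Gstm3 (s) it covers transcripts of other genes, so signal from close relatives may be included there.

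The mice were female C57BL/6, 8 to 12 weeks old, and RNA of the whole liver was hybridised to 12 Affymetrix Mouse430A arrays, 3 for each of 4 groups. The groups were HDAC6-/- mice, HDAC9-/- mice, wild-type mice given a high-fat diet after weaning (60% of kcal from fat) and wild-type mice on regular chow (25% of kcal from fat). HDAC6 and HDAC9 are histone deacetylases, enzymes that take acetyl groups off histones and other proteins. The labels state a diet for the wild-type mice alone, so genotype and diet cannot be told apart where a knockout is set against a wild-type group. How the deletions were made, and whether each replicate was 1 mouse, is not given in the sources used here, so the p-values cover spread among these samples, which may be technical. Values are log2 expression after RMA, the robust multi-array average, in which a difference of 1 is a doubling.

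Glutathione S-transferases are dimeric enzymes that join the tripeptide glutathione to electrophiles, such as epoxides made by cytochromes P450 and aldehydes made by lipid peroxidation, so that the conjugates can be exported and excreted. Liver holds large amounts of the alpha, mu and pi classes. Several alpha and mu genes are inducible, through the oxidant sensor NRF2 acting at antioxidant response elements and through the xenobiotic receptors CAR and PXR, and Gstp1 is known to be higher in male than in female mouse liver.

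The arrays were alike in their main features. Array medians lay between 5.78 and 5.86, and 12 measured hepatocyte markers, among them albumin, had medians between 13.4 and 13.5 on the 12 arrays. Hdac6 read 6.16, 6.17 and 6.50 in the HDAC6 knockouts and at least 7.46 on the other arrays, whereas Hdac9 read between 4.04 and 4.53 everywhere, near the median of 4.03 for 29 genes with no known expression in liver, and checks no label. HDAC9 knockout replicate 2 stood apart with 17 exocrine pancreas markers whose median was 8.19, against 3.78 to 4.46 on the other 11 arrays. A score of clock genes (the mean of Per3, Nr1d1, Nr1d2, Dbp, Hlf and Tef less that of Cry1, Nfil3, Clock, Npas2 and Arntl) was 1.63, 1.76 and 2.79 on the high-fat arrays, against -0.68 to 1.44 in chow, -0.72 to 1.602 in the HDAC6 knockouts and -1.23 to 0.83 in the HDAC9 knockouts.

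Promoter windows are shown for 4 members: Gsta2 and Gstm3, which had the largest differences in group means, and Gsta3 and Gstp1, which alone held a searched element of oxidant response. They are RefSeq sequences of build GRCm38.p6, all on the gene's own strand from 5' to 3', and end at the base before the outermost annotated start. Capitals mark the core of the antioxidant response element, TGACNNNGC, or the AP-1 element, TGANTCA, on either strand. The windows are chr9:78347193-78347395 (minus strand) for Gsta2, chr3:107969175-107969424 (minus) for Gstm3, chr1:21240335-21240564 (plus) for Gsta3 and chr19:4037913-4038162 (minus) for Gstp1.
Gsta2: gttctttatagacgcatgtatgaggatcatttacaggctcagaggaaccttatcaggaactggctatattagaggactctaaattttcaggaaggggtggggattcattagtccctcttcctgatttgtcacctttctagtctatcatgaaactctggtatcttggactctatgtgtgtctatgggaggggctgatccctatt
Gstm3: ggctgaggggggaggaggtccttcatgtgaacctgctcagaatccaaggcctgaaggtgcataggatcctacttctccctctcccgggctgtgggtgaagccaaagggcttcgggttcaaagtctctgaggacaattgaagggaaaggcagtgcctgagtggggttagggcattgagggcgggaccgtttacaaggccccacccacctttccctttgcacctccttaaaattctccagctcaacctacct
Gsta3: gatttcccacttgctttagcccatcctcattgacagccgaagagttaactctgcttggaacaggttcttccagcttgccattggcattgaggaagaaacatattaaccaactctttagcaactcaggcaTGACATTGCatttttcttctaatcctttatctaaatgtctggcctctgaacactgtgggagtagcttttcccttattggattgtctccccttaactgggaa
Gstp1: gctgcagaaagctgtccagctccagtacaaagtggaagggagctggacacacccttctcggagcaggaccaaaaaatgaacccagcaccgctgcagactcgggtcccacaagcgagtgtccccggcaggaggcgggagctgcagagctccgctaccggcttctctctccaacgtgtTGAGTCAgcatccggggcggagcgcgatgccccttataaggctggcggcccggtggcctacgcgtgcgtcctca
The HNF1 element GTTAAT (6.43% of windows) and the D-box TTATGNAA (3.07%) were searched as well on both strands, with 1 GTTAAT match, in Gsta3, and 0 D-box matches. The antioxidant match of Gsta3 lay 101 to 93 bases before the start and the Gstp1 match 74 to 68 bases before it. Of 32851 RefSeq promoter windows of 250 bases, 10.2% held TGACNNNGC and 6.75% held TGANTCA, so a match in 1 of the 6 member windows of at least 100 bases for each motif is a description and not a site. The 6 windows are these 4 and those of Gstm1 and Gstm2, in which these letters were not found.

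No member passed the threshold, an adjusted p under 0.05 (limma, Benjamini-Hochberg over 12393 genes), in any of the 6 comparisons between groups. The share of all genes called was 0.0161% for the HDAC6 knockout against chow, 0.0968% for the HDAC9 knockout against chow, 0.29% for high-fat against chow, 0.00807% between the knockouts, 0.145% for high-fat against the HDAC6 knockout and 0.436% for high-fat against the HDAC9 knockout. These shares rest on few genes and moved with single arrays: the 54 genes called for high-fat against the HDAC9 knockout became 9 without high-fat replicate 3 and 97 without HDAC9 knockout replicate 1. The 12 called for the HDAC9 knockout against chow became 0 without HDAC9 knockout replicate 2 or 3 or chow replicate 1. At an unadjusted p under 0.05, 1, 1, 3, 1, 3 and 4 of the 10 members passed in those comparisons, where 5.77%, 6.08%, 8.48%, 3.8%, 7.27% and 8.1% of all genes did. The F test for any difference among the 4 groups called 0 members and 0.331% of all genes, with Gsta2 having the smallest adjusted p, 0.167. The 3 members with the largest or most even differences were Gsta2 and Gstm3, lower on high-fat arrays, and Gstt2, lower on chow arrays.

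**Figure D1:**
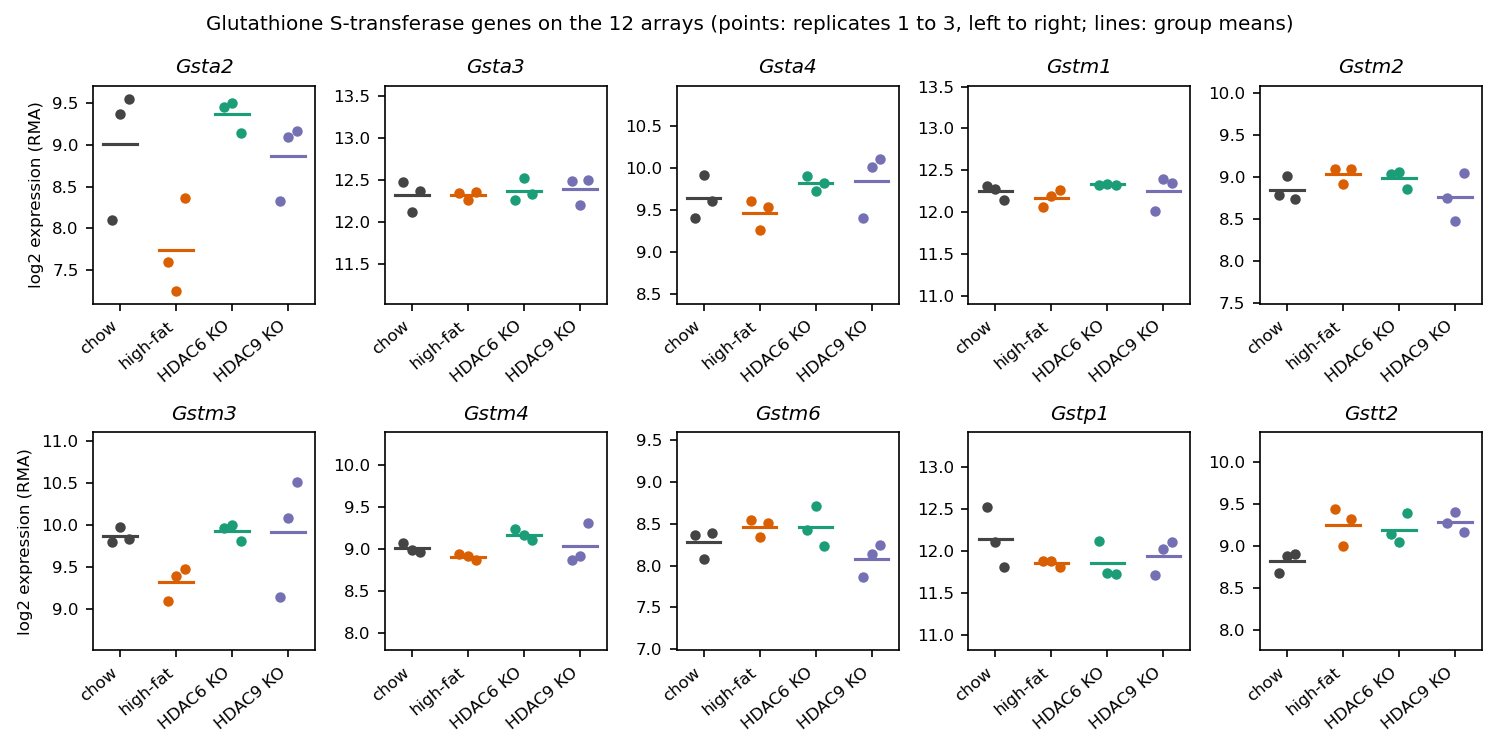
Log2 expression (RMA, y axis, each panel spanning 2.6 units) of the 10 genes on the 12 arrays; points are replicates 1 to 3 from left to right in each group and lines are group means. Gsta2 spreads most, from 7.26 to 9.55, and the chow points of Gstt2 lie below all others.

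Gsta2 encodes an alpha-class subunit that is strongly induced by antioxidants in mouse liver. It read 7.60, 7.26 and 8.37 on the high-fat arrays, 8.10, 9.37 and 9.55 on the chow arrays, 9.45, 9.50 and 9.14 in the HDAC6 knockouts and 8.33, 9.10 and 9.16 in the HDAC9 knockouts. Chow replicate 1 and HDAC9 knockout replicate 1 were low in their groups and lay below high-fat replicate 3, so the high-fat arrays overlapped with both of those groups and not with the HDAC6 knockouts.

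The group means of Gsta2 ran from 7.74 ± 0.57 in high-fat through 8.86 ± 0.46 in the HDAC9 knockout and 9.01 ± 0.79 in chow to 9.36 ± 0.20 in the HDAC6 knockout (SD, n = 3 each). The high-fat mean was 2.41-fold below chow (log2 fold change -1.27, SE 0.34, 95% interval -2.002 to -0.53), with adjusted p = 0.219 in limma. Against the HDAC6 knockout it was 3.08-fold lower (log2 fold change -1.62, SE 0.34, limma adjusted p = 0.0836), and against the HDAC9 knockout 2.18-fold lower (-1.12, limma adjusted p = 0.270). Neither knockout was separated from chow: the intervals were -0.38 to 1.09 for HDAC6 and -0.88 to 0.59 for HDAC9. The HDAC6 knockout difference of 0.35 turned to -0.10 without chow replicate 1. The high-fat difference passed the threshold against chow without chow replicate 1, at -1.72 (limma adjusted p = 0.0301), and a fit of only the high-fat and HDAC6 knockout arrays gave -1.62 with limma adjusted p = 0.0143. The clock score moved with the high-fat group; with it as a covariate the difference from chow was -1.60 (SE 0.42, limma adjusted p = 0.262).

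**Figure D2:**
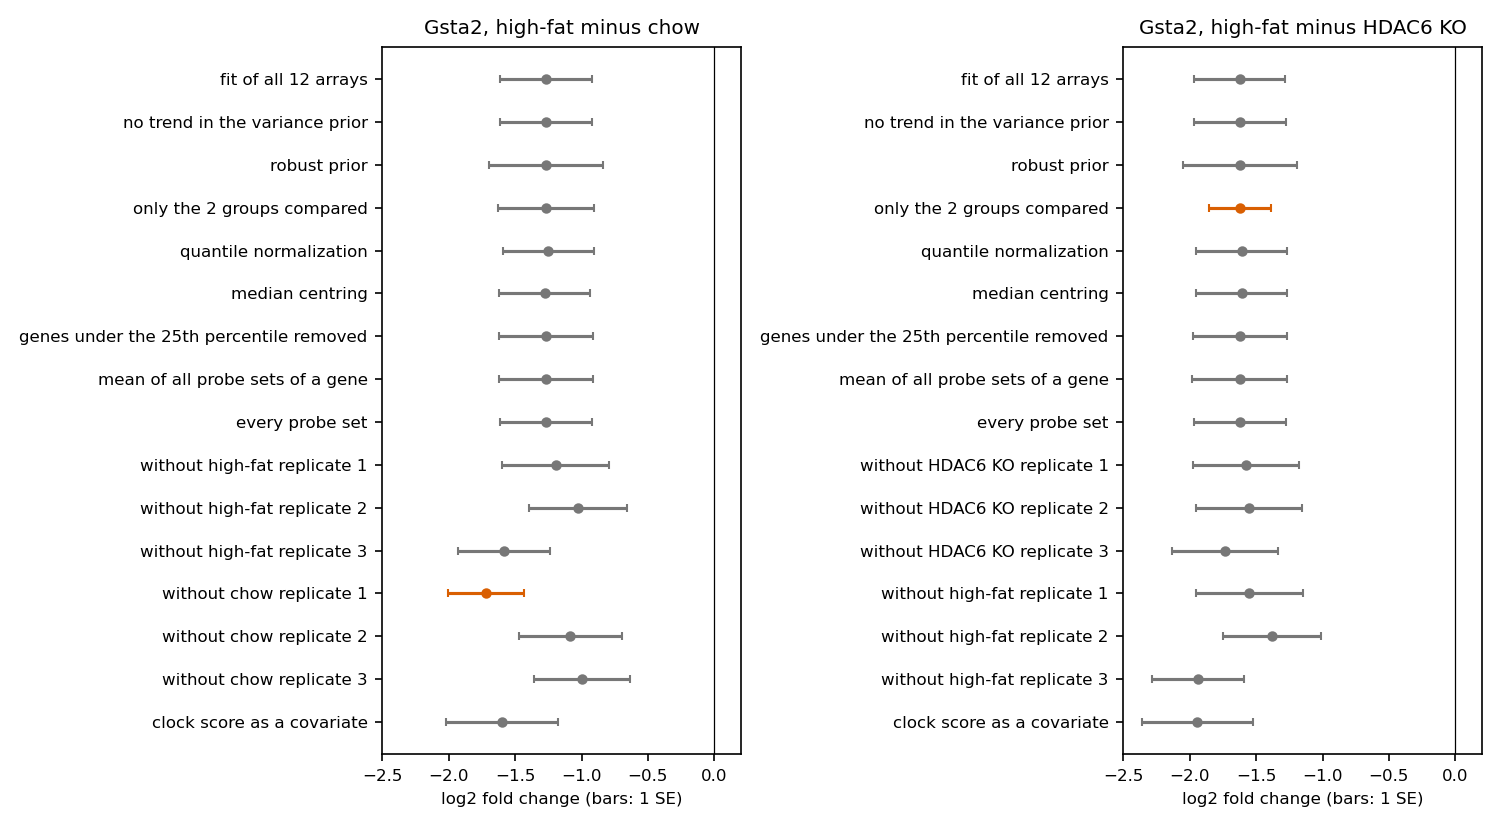
Log2 fold change of Gsta2 (x axis, bars 1 SE) for high-fat minus chow and high-fat minus HDAC6 knockout under the settings that could be fitted without a block; orange marks an adjusted p under 0.05. Every value shown is below 0, from -1.72 to -0.999 against chow and from -1.94 to -1.38 against the HDAC6 knockout, and 1 setting in each panel is orange.

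A further probe set carried the symbols of Gsta2, its close relative Gsta1 and Gm3776 together, and was therefore not counted as a member. It read 6.74, 6.44 and 7.61 on high-fat, and chow had 7.37, 8.51 and 8.82. HDAC9 knockout replicate 1 was again the lowest of its group, at 7.46 against 8.34 and 8.55, and the HDAC6 knockouts read 8.62, 8.85 and 8.26. High-fat minus chow was -1.304 (SE 0.37, limma adjusted p = 0.303 over all probe sets), and probes of such near-identical transcripts cannot assign a signal to 1 gene.

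The other alpha members differed less. Gsta3, which conjugates the epoxide of aflatoxin B1 in mouse liver, lay between 12.1 and 12.5 on all 12 arrays. Its differences from chow were 0.05, 0.07 and 0.002 in the 2 knockouts (HDAC6, then HDAC9) and on high-fat (SE 0.11 each), and its second probe set had -0.0002, -0.04 and -0.10. The 95% intervals of the first probe set lay within -0.23 to 0.31.

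Gsta4, whose enzyme acts on 4-hydroxynonenal, a product of lipid peroxidation, read 9.61, 9.26 and 9.54 on high-fat, overlapping the chow values of 9.40, 9.92 and 9.60. The HDAC6 knockouts read 9.90, 9.73 and 9.82, all above the high-fat arrays, and the HDAC9 knockouts 9.41, 10.01 and 10.11. The high-fat mean was the lowest, 0.17 below chow, 0.35 below the HDAC6 knockout and 0.37 below the HDAC9 knockout on the log2 scale (limma adjusted p = 0.831, 0.722 and 0.600). Without chow replicate 2 the high-fat difference from chow was -0.03, without chow replicate 1 it was -0.29, and with the clock score as a covariate -0.32. Against the HDAC9 knockout it was -0.59 without HDAC9 knockout replicate 1 (limma adjusted p = 0.0930) and -0.24 without HDAC9 knockout replicate 3.

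The mu genes are neighbours: in RefSeq order on chromosome 3, Gstm6 stands between Gstm7 and Gstm3, and Gstm2 beside Gstm1. Gstm3 showed the largest mu difference. It read 9.09, 9.39 and 9.47 on the high-fat arrays, 9.80, 9.98 and 9.84 on the chow arrays, and 9.96, 10.01 and 9.82 in the HDAC6 knockouts. The HDAC9 knockouts spread from 9.14 on replicate 1 to 10.08 and 10.52. All 3 high-fat arrays thus lay below all chow and HDAC6 knockout arrays, and the HDAC9 knockouts overlapped with every other group.

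The high-fat mean of Gstm3 was 1.46-fold below chow (log2 fold change -0.55, SE 0.24, limma adjusted p = 0.537) and 0.61 and 0.59 below the HDAC6 and HDAC9 knockouts on the log2 scale. Those differences, -0.61 and -0.59, had limma adjusted p = 0.535 and 0.507. Without HDAC9 knockout replicate 1 the high-fat value against the HDAC9 knockout was -0.98 (SE 0.14, limma adjusted p = 0.00566), and without replicate 3 it was -0.29. The second Gstm3 probe set, which carries no shared-probe suffix, had smaller differences. They were -0.22 from chow and -0.49 from the HDAC6 knockout (SE 0.18 each).

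Gstm1, the abundant mu subunit of mouse liver, varied little. Its leading probe set read 12.06, 12.19 and 12.26 on the high-fat arrays, 12.31, 12.28 and 12.15 on the chow arrays, 12.33, 12.34 and 12.33 in the HDAC6 knockouts and 12.02, 12.40 and 12.35 in the HDAC9 knockouts. The HDAC6 knockouts lay above all chow arrays by a narrow margin, with a difference of 0.08 (SE 0.10, limma adjusted p = 0.946). On the other 3 Gstm1 probe sets the HDAC6 knockouts overlapped with chow, with differences of -0.05, 0.04 and 0.08. High-fat minus chow was -0.08 (95% interval -0.29 to 0.13), and the other 3 Gstm1 probe sets had -0.26, -0.17 and -0.08.

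The remaining mu members kept group means within 0.38 of each other. Gstm4 read 8.93, 8.92 and 8.87 on the high-fat arrays, below all chow arrays (9.07, 8.99 and 8.96) and all HDAC6 knockouts (9.23, 9.16 and 9.10), by means of 0.10 and 0.26. With the clock score as a covariate the sign against chow turned, to 0.04 (SE 0.13), and the difference from the HDAC6 knockout was -0.12. Gstm2 had its lowest value, 8.48, on replicate 2 of the HDAC9 knockouts. The pancreas markers are high there, and their part in the Gstm2 value was not tested. Without that array the HDAC9 knockout difference of Gstm2 from chow turned from -0.09 to 0.06. Its other differences from chow were 0.14 in the HDAC6 knockout and 0.19 on high-fat, the latter 0.29 with the clock score as a covariate. Gstm6 was lowest in the HDAC9 knockouts, at 7.86, 8.14 and 8.24, below the high-fat arrays at 8.54, 8.34 and 8.51. That difference was 0.38 (SE 0.14, limma adjusted p = 0.430), or 0.58 with the clock score as a covariate, and the HDAC6 knockouts, at 8.43, 8.72 and 8.24, overlapped with both. HDAC9 knockout minus HDAC6 knockout was -0.38 for Gstm6 (SE 0.14, limma unadjusted p = 0.0167, adjusted p = 0.9998).

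Gstp1 is the pi-class subunit and the only member whose mean was highest in chow. The chow arrays read 12.52, 12.10 and 11.81, against 12.12, 11.74 and 11.73 in the HDAC6 knockouts, 11.71, 12.02 and 12.10 in the HDAC9 knockouts and 11.88, 11.88 and 11.81 on the high-fat arrays. Chow replicate 1 held the highest value and chow replicate 3 lay among the other groups. The differences from chow were -0.28, -0.20 and -0.29 (SE 0.16 each, limma adjusted p = 0.874, 0.876 and 0.660). They rested on single chow arrays: without chow replicate 1 they were -0.09, -0.01 and -0.10, and without chow replicate 3 they were -0.45, -0.37 and -0.46. With the clock score as a covariate the high-fat difference was -0.12. The median of 17 measured male-biased genes was also highest on chow replicate 1, 0.52 above their 12-array mean with 0.31 and 0.28 for chow replicates 2 and 3 and at most 0.06 elsewhere; its part in the Gstp1 values was not tested.

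Gstt2 encodes a theta-class subunit that acts on sulfate esters. The chow arrays read 8.67, 8.88 and 8.90, below each of the other 9 arrays: 9.14, 9.04 and 9.39 in the HDAC6 knockouts, 9.28, 9.41 and 9.17 in the HDAC9 knockouts and 9.44, 8.998 and 9.32 on the high-fat arrays. The differences from chow were 0.37 (95% interval 0.10 to 0.65), 0.47 (0.19 to 0.74) and 0.43 (0.16 to 0.71), or 1.297-fold, 1.38-fold and 1.35-fold. None passed over all genes (limma adjusted p = 0.757, 0.438 and 0.278), and the 3 comparisons share the same chow arrays, so they do not count as 3 separate observations. With the clock score as a covariate the high-fat difference was 0.23 (SE 0.14, limma adjusted p = 0.703), and the knockout differences were 0.37 and 0.53. The means of the HDAC6 knockouts, HDAC9 knockouts and high-fat arrays, 9.19, 9.29 and 9.25, differed from each other by less than 1 SE of a difference, 0.13, in the fit without that score. With it, high-fat stood at -0.14 against the HDAC6 knockout (SE 0.14) and -0.29 against the HDAC9 knockout (SE 0.16; limma adjusted p = 0.874 and 0.675). Kupffer cell markers, of liver macrophages, were lowest on chow by group: the median over 13 measured markers was 0.25, 0.32 and 0.35 above chow in the same 3 groups. Of these markers 0 were called by limma and 3, 7 and 7 had an unadjusted p under 0.05, as did 5.77%, 6.08% and 8.48% of all genes. By array the knockouts overlapped with chow and the high-fat arrays did not. The median shift of these markers from the 12-array mean was 0.30, 0.16 and 0.01 on the high-fat arrays. On the chow arrays the shift was -0.22, -0.03 and -0.41. It was -0.05 on HDAC6 knockout replicate 3 and -0.11 on HDAC9 knockout replicate 3. The part of these markers in the Gstt2 values was not tested.

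**Figure D3:**
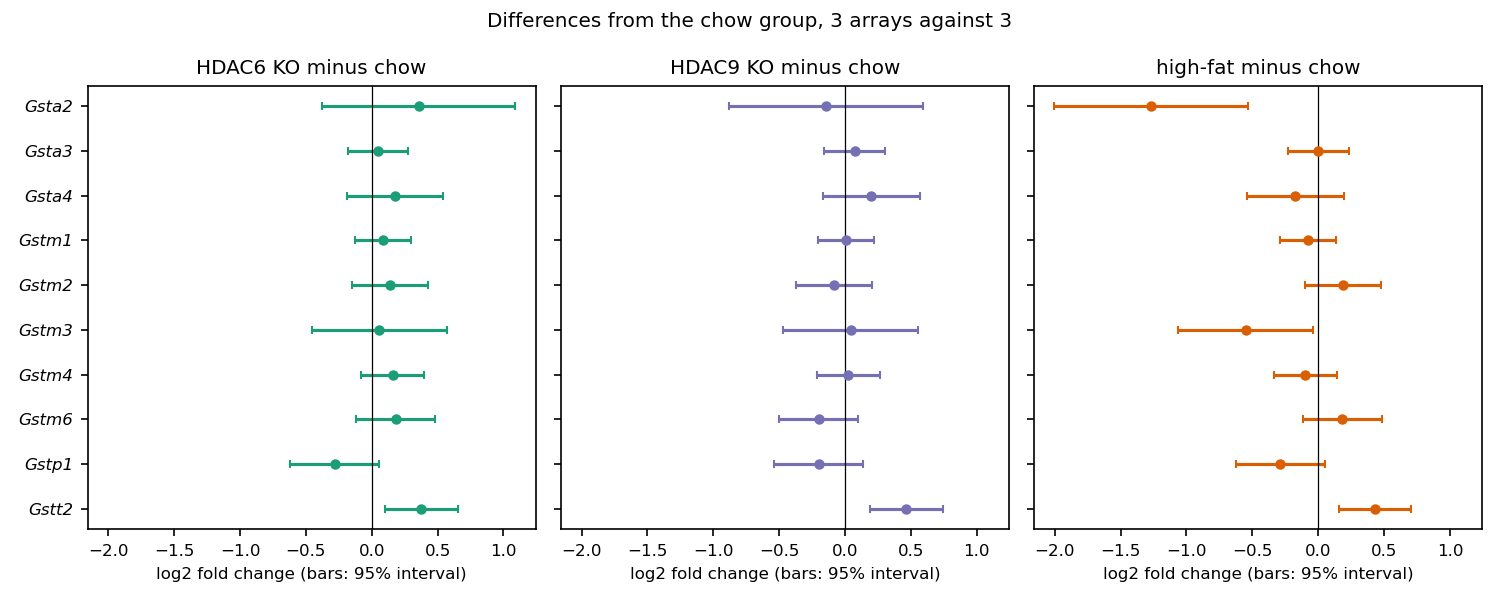
Log2 fold change of each gene (x axis) against chow, with panels for each knockout and for high-fat, with 95% intervals from limma. The intervals of Gstt2 lie above 0 in all 3 panels and those of Gsta2 and Gstm3 lie below 0 in the high-fat panel, before any adjustment for the number of genes tested.

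The median of the 10 members was close to that of all genes in the HDAC9 knockout and farther from it in the HDAC6 knockout and high-fat comparisons. Their median log2 fold change was 0.15 in the HDAC6 knockout against chow, with 9 of 10 means higher, 0.02 in the HDAC9 knockout, with 6 of 10 higher, and -0.09 on high-fat, with 4 of 10 higher. Over all genes the medians were -0.01 in each of the 3, with 5656, 5695 and 5852 of 12393 means higher. In the HDAC6 knockout comparison Gsta2 turned to -0.10 without chow replicate 1 and Gsta3 to -0.05 without chow replicate 2. Arrays did not overlap with chow for 3 members in the HDAC6 knockout (Gstm1, Gstm4 and Gstt2), 1 in the HDAC9 knockout (Gstt2) and 3 on high-fat (Gstm3, Gstm4 and Gstt2), where the share of all genes was 10.1%, 12.6% and 14.7%. In the HDAC6 knockout, Gstm1 counts through its leading probe set alone. High-fat and HDAC6 knockout arrays did not overlap for 5 members, where the share of all genes in either direction was 13.1%. These 5 (Gsta2, Gsta4, Gstm1, Gstm3 and Gstm4) were all lower on high-fat, where 6.54% of all genes were lower without overlap. High-fat and HDAC9 knockout arrays did not overlap for 1 member (Gstm6) and 13.8% of all genes. Between the knockouts there was no overlap for 0 members and 8.46% of all genes.

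Single arrays also differed across members. HDAC9 knockout replicate 1 held the lowest of the 12 values for 3 members (Gstm1, Gstm6 and Gstp1), and it was the lowest of its group for Gsta2, Gsta4, Gstm3 and Gstm4 as well. HDAC9 knockout replicate 3 held the highest of the 12 values for 3 members (Gsta4, Gstm3 and Gstm4). The spread within the HDAC9 knockouts was the widest of the 4 groups for Gsta4, Gstm1, Gstm2, Gstm3 and Gstm4, with SDs from 0.21 for Gstm1 to 0.70 for Gstm3.

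Other genes of glutathione and xenobiotic metabolism give the setting. Of 18 further glutathione transferases, 13 were measured and 0 were called against chow in any group (limma), with 4, 2 and 6 at an unadjusted p under 0.05 in the 2 knockouts (HDAC6, then HDAC9) and on high-fat. On high-fat their median was 0.07, with Gstp3, a second pi-class gene, at 0.52 (SE 0.15, limma adjusted p = 0.248) and Gstm7, the mu gene next to Gstm6, at 0.298 (SE 0.10, limma adjusted p = 0.387). The prostaglandin D synthase Hpgds had the smallest p of that list, at 0.46 (limma adjusted p = 0.101), but its means of 3.46 and 3.00 lay below the 4.03 of genes with no known liver expression. Of 17 measured genes of glutathione synthesis and recycling 0 were called against chow, with 1, 1 and 0 at an unadjusted p under 0.05 in the same order. The glutathione synthetase gene Gss had the smallest p of that list in both knockouts, at -0.51 and -0.44 (SE 0.16, limma adjusted p = 0.722 and 0.726).

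Calls appeared on the high-fat diet among targets of the receptors and of NRF2. Of 23 measured CAR and PXR targets, 2 fell and 1 rose against chow, with a list median of -0.25. Cyp2b10, the standard CAR target, fell from 9.01 ± 0.08 to 5.34 ± 0.34 (SD, n = 3 each; limma adjusted p = 1.27e-06), the carboxylesterase gene Ces2a fell by 0.87 (SE 0.15, limma adjusted p = 0.0199) and Cyp2c38 rose by 0.902 (SE 0.15, limma adjusted p = 0.0158). The Ces2a call ended without high-fat replicate 1 or 2 or chow replicate 1 or 3 (limma adjusted p up to 0.120), and that of Cyp2c38 without high-fat replicate 1 or 2 or chow replicate 2 (up to 0.103). Both calls also ended in a fit of only the 2 groups (limma adjusted p = 0.0591). Cyp2b10 was called lower on high-fat against the HDAC6 and HDAC9 knockouts as well, at -3.83 and -3.67. So was Ces2a, at -1.07 and -1.14 (limma adjusted p = 0.00615 and 0.00322). For these genes the alternatives were computed against chow alone. Of 22 measured NRF2 targets, 1 rose and 1 fell, with a median of -0.12. Heme oxygenase 1 (Hmox1) rose by 1.12 (SE 0.21, limma adjusted p = 0.0465) and microsomal epoxide hydrolase (Ephx1) fell by 1.02 (SE 0.20, limma adjusted p = 0.0499). Both were at the edge: the Hmox1 call was lost on leaving out each of the 6 arrays in turn, and that of Ephx1 for each but chow replicate 3. With the clock score as a covariate the calls of these 4 genes ended (limma adjusted p from 0.0613 to 0.379), while that of Cyp2b10 held. In that fit the differences were -0.85 for Ces2a and 1.035 for Cyp2c38, about as large as without it, and 0.84 for Hmox1 and -0.71 for Ephx1, which were smaller. In the knockouts, 0 genes of these 2 lists were called against chow, with 4 and 7 CAR and PXR targets and 1 and 0 NRF2 targets at an unadjusted p under 0.05 in the HDAC6 and HDAC9 knockouts. On high-fat, 13 CAR and PXR targets and 8 NRF2 targets had an unadjusted p under 0.05 against chow.

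The regulators and exporters gave no calls against chow. Of 19 measured transcription factors of the xenobiotic response, 0, 1 and 5 had an unadjusted p under 0.05 in the 2 knockouts (HDAC6, then HDAC9) and on high-fat. On high-fat, Foxa2, a factor that opens liver chromatin, stood at -0.65 (SE 0.14, limma adjusted p = 0.0807) and Cebpb at 0.49 (SE 0.11, limma adjusted p = 0.109). Cebpb was called higher on high-fat against the HDAC6 knockout (0.66, limma adjusted p = 0.0245) and the HDAC9 knockout (0.60, limma adjusted p = 0.0309). In the HDAC9 knockouts the receptor gene Ahr stood at -0.79 (SE 0.18, limma adjusted p = 0.230). Of 6 measured exporters of conjugates, 0, 0 and 2 had an unadjusted p under 0.05 in the same order, and Abcc3 and Abcg2 had the smallest p on high-fat, at -0.66 and -0.60 (limma adjusted p = 0.268 and 0.134). Of 7 measured targets of the receptor AHR the counts were 1, 1 and 0, and Cyp1a2 had the smallest p in the HDAC9 knockouts, at -0.95 (SE 0.18, limma adjusted p = 0.0840).

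Markers of other liver cells were read beside the members, since whole liver holds cells other than hepatocytes and a smaller share of a cell type cannot be told apart from less RNA per cell. The median of 10 measured bile duct cell markers lay between 4.62 and 4.71 on the high-fat arrays, 4.49 and 4.79 on chow, 4.80 and 5.08 in the HDAC6 knockouts and 4.90 and 5.01 in the HDAC9 knockouts, near the 4.03 of genes with no known expression in liver. Their part in the member values was not tested.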

How the data were processed

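The series matrix held log2 values per probe set for 12 arrays (22626 probe sets), deposited by the authors after RMA, per the submitters' processing notes. The RMA software, its version and the chip definition are not given in the sources used here. Per the labels, 100 ng of total RNA was amplified and labelled with biotin. No further normalization was applied, and 0 per-sample columns were left unused. The platform annotation gave 20380 probe sets 1 symbol, 691 several and 1555 none. The probe set of highest mean stood for a gene.

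Group means were fitted over the 12 arrays with limma 3.58.1 in R 4.3.3 (moderated statistics with a mean-variance trend, two-sided, median 14.3 degrees of freedom), with Benjamini-Hochberg adjustment over 12393 genes, or over all 22626 probe sets for the one with several symbols. The median SE of a difference was 0.124, and 3 arrays per group limit the precision. The procedure was tested on simulated data. The members and the gene lists were chosen with earlier results of these data known. Named were all members and, for the lists and comparisons set out gene by gene, called genes and up to 3 genes of smallest p. Called genes of lists read only as a score or a median are not all described. Genes most like a member were to be named for called members, of which there were 0. Alternatives are given at the end; the clock-score covariate was chosen after seeing the data. Promoters came from RefSeq (GRCm38.p6), which listed 8 of the 10 members. Python 3.11.15 with matplotlib 3.10.9 and pandas 2.3.3 made the plots.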

Additional observations from a re-analysis of the deposited data

How the results depend on the processing

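The values were recomputed under 24 alternatives, of which 12 leave out 1 array each. The 13 differences between groups that had an unadjusted p under 0.05 in a member kept their sign under all alternatives that could be fitted. Of the other 47, 23 changed sign under at least 1 alternative and 0 passed the threshold under any. The count of members called was 0 throughout for the HDAC6 knockout against chow, the HDAC9 knockout against chow and the knockouts against each other. It ran from 0 to 1 with arrays left out for high-fat against chow (Gsta2, without chow replicate 1), for high-fat against the HDAC9 knockout (Gstm3, without HDAC9 knockout replicate 1) and for the F test (smallest adjusted p 0.0328 and 0.0214 without those arrays). For high-fat against the HDAC6 knockout it was 1 in a fit of only the 2 groups compared (Gsta2) and 0 with each array left out. With the replicate block the count was 1 for high-fat against the HDAC6 knockout (Gsta2, limma adjusted p = 0.0415) and 0 in the other 5 comparisons. The numbers share no stated origin, so they were not taken to pair the samples. Deviations of same-numbered arrays correlated between -0.152 and 0.148 over genes, above 0.1 in 4 of 18 pairs. For differently numbered arrays the range was -0.238 to 0.241, above 0.1 in 5 of 36 pairs. Removing probe sets whose suffix marks shared probes left no value for Gsta2, Gstm6 and Gstp1. Over all genes, high-fat against chow called 36, with 22 for the mean of all probe sets, 12 at an adjusted p under 0.01, 6 with the clock score and 13 to 33 with an array left out; high-fat against the HDAC6 knockout called 18, with 56 in a fit of the 2 groups, 36 with a robust prior, 31 without shared-probe sets and 8 to 24 with an array left out. With an array left out, high-fat against the HDAC9 knockout ran from 9 to 97 (54 with all arrays), the HDAC9 knockout against chow from 0 to 13 (12), the HDAC6 knockout against chow from 1 to 4 (2) and the knockouts against each other from 1 to 4 (1). With the clock score the first of these was 19, and in a fit of only the 2 groups the second was 0. Background correction could not be varied from RMA values, and differences near the SE of 0.124 are beyond what 3 arrays per group resolve.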
